A study of Solanum lycopersicum with 8 samples.

Results

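The genes described here are 116 abundant genes of tomato gland cells, out of 34725 genes counted in the files. They were chosen by their read counts: each averaged at least 500 CPM (its counts scaled to one common total of gene counts per library) over 4 trichome libraries and at least 8 times its average over 4 leaf libraries. A further 10 genes met both limits and were left out by a fixed list of gene IDs, and 96 other genes reached 500 CPM in trichome without reaching 8 times leaf. Because the choice used trichome and leaf levels, every difference between the tissues below is a description and carries no test.

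RNA was sequenced from gland cells of type VI trichomes (4 libraries) and from leaf whose trichomes had been scraped off by hand (4 libraries), 1 library of each tissue in each of 4 collections. All libraries came from tomato (Solanum lycopersicum) cultivar M82, grown in soil for 5 weeks at 28 °C under 250 µE of light. The trichome libraries are labelled as complemented line #4, a single line, and the leaf libraries as the af mutant; af, short for anthocyanin free, is a lesion in CHI1, a chalcone isomerase of flavonoid synthesis. The protocols instead take the shaved leaves from the plants used for the trichomes, and if the genotype labels hold, genotype and tissue cannot be told apart.

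Type VI trichomes are leaf hairs with a head of secretory cells on a short stalk. Their gland cells are known for making and storing terpenes and flavonoids, which deter or poison small herbivores. Making terpenes draws on isopentenyl diphosphate and its isomer, which terpene synthases use after they have been joined into longer prenyl chains. Lipoxygenases and hydroperoxide lyases belong to another pathway of leaf tissue, in which fatty acids are oxidised and cut to short volatile aldehydes.

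Gene counts totalled 24596280 to 26514416 per trichome library and 19209754 to 34941715 per leaf library. At that depth no abundant gland gene was at 0 in any library: the lowest count of any of them was 4146 in a trichome library and 22 in a leaf library. Summed over 5 genes listed as type VI gland cell markers, trichome libraries held 9489 to 13048 CPM and leaf libraries 70.9 to 205.9 CPM. Of these, MYC1 is itself among the 116, and PHS1, NDPS1 and TPS12 met both limits and were left out by ID. The remaining marker, EOT1, averaged 185 CPM in trichome and 2.47 CPM in leaf. Summed over 5 mesophyll markers, trichome libraries held 1709 to 1877 CPM and leaf libraries 22966 to 27007 CPM. The list for phloem is 1 gene, which was at 1.13 to 2.15 CPM in trichome and 135.7 to 250.8 CPM in leaf, and 5 markers of type I and IV trichome tips summed to 82.6 to 138.5 CPM in trichome and 0.601 to 15.5 CPM in leaf. All 5 of these tip markers were higher in trichome. Markers of other epidermis, 3 genes, summed to 287.3 to 622.9 CPM in trichome and 346.5 to 666.3 CPM in leaf. By their means these 3 genes did not run alike. CER6 was higher in trichome (282 against 159 CPM in leaf), while CD2 (51.9 against 121 CPM) and CD1 (110 against 280 CPM) were lower. The gland marker sum was thus far higher in trichome. As MYC1, PHS1, NDPS1 and TPS12 met both limits on these same libraries, that sum is no independent check. Mesophyll markers were low in trichome but not at 0, and their part in the results was not tested. Marker genes rest on published ID assignments: of 10 marker names looked up in the reference table, 8 lay on the expected chromosome at about the expected place, and the phloem gene and 1 mesophyll gene had no symbol there. CHI1 was at 1426, 1564, 1532 and 1184 CPM in trichome libraries 1 to 4, and at 293.0, 336.7, 135.9 and 92.8 CPM in leaf libraries 1 to 4. In bulk samples fewer cells of a type and less RNA per cell cannot be told apart.

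The 116 genes took a large share of all gene counts in trichome and well under 1% in leaf. Their share was 25.9, 28.1, 25.2 and 31.5% of gene counts in trichome libraries 1 to 4, against 0.593, 0.676, 0.518 and 0.440% in leaf libraries 1 to 4. The mean shares were 27.7% ± 2.80 in trichome and 0.557% ± 0.101 in leaf (SD, n = 4 each). Reads were unevenly divided: the 2 most abundant genes held 18.8% of the trichome reads of the group, the first 5 held 32.9% and the first 12 held 48.3%. In all, 5 genes averaged at least 10000 CPM in trichome, 31 at least 2000 CPM and 70 at least 1000 CPM, while 46 lay between 500 and 1000 CPM. The median of the genes' means was 1202 CPM in trichome and 20.4 CPM in leaf. Since gene lengths are not in the files, CPM says how the reads were divided among genes and not how many transcripts each gene had.

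**Figure D1:**
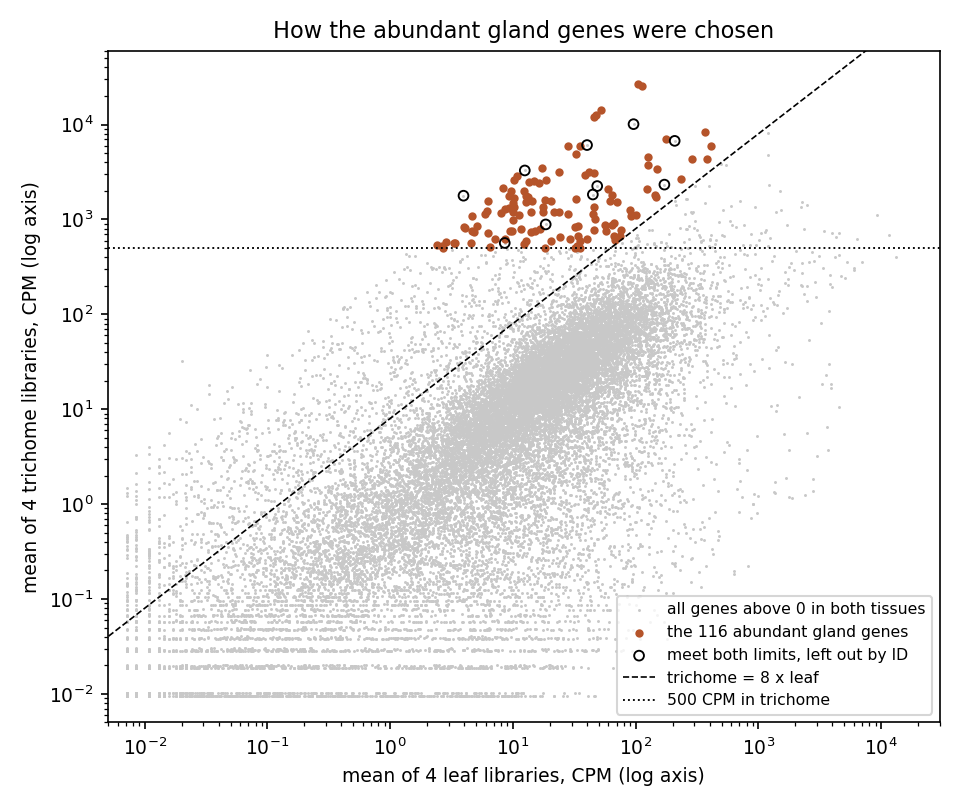
Mean CPM of each gene in 4 trichome libraries (vertical, log axis) against its mean in 4 leaf libraries (horizontal, log axis). Coloured points are the 116 abundant gland genes, above the dotted line at 500 CPM and above the dashed line at 8 times leaf; open circles are the 10 genes left out by ID, and grey points are the other genes above 0 in both tissues.

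The ratio of mean trichome CPM to mean leaf CPM had a median of 77.0 and ran from 8.92 to 273.9. It was under 20 for 25 genes, 20 to 100 for 43 and at least 100 for 48, of which 17 reached 200; these bands were set after the values were seen. For all 116 genes the lowest trichome library lay above the highest leaf library, and 105 were at least 8 times leaf in each of the 4 collections. The median ratio was 71.2, 51.9, 88.1 and 120.9 in collections 1 to 4. The quasi-likelihood test of edgeR, run over all genes, compared the tissues without the pairing by collection. It called 116 of 116 higher in trichome (Benjamini-Hochberg adjusted p at most 0.00158), against 33.9% of all 20409 genes tested. The rule fixed that direction, so nothing is read from the count. Their log2 fold changes ran from 3.43 to 8.39 with a median of 6.50, beside a median of -0.09 over all tested genes, and their standard errors from 0.20 to 0.84.

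At the limits, the genes just inside 500 CPM were Solyc07g016080 at 500.2 CPM and Solyc00g071180 at 503.5 CPM in trichome. Solyc07g016080 had 520.1, 467, 526 and 488 CPM in trichome libraries 1 to 4, against 3.23, 4.51, 2.31 and 0.630 CPM in leaf libraries 1 to 4. Just outside lay Solyc11g065930 at 488.9 and Solyc04g050570 at 488.0 CPM. Solyc11g065930 had 511, 426, 479 and 541 CPM in trichome, against 47.8, 39.9, 52.7 and 86.4 CPM in leaf. Solyc04g050570 had 852, 355, 626 and 119.6 CPM in trichome, against 6.98, 24.8, 3.71 and 0.343 CPM in leaf. Just inside 8 times leaf were Solyc08g005050 at 8.92 times and Solyc08g082430 at 9.04 times, and just outside were Solyc03g025950 at 7.76 and Solyc01g028900 at 7.39 times. Solyc03g025950 had 485, 545, 507 and 559.8 CPM in trichome, against 56.5, 71.1, 78.1 and 64.7 CPM in leaf. Solyc01g028900 had 649, 519.8, 565 and 541 CPM in trichome, against 73.6, 84.0, 86.9 and 63.6 CPM in leaf. In both the lowest trichome library was far above the highest leaf library, as in the genes inside the limit.

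The files give gene IDs without names, and none of the 34725 IDs stood in the reference table. Of the 116 genes, 5 are named here from published ID assignments, after a coarse check that the table holds the symbol on the same chromosome within 5 percentage points of the same relative place. The names IDI1 and TPS17 were looked up after the members were known. The other 111 are given by ID alone, with no role.

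Both named genes of fatty acid oxidation were abundant. Solyc01g006540 is loxC, a lipoxygenase that feeds the formation of short volatile aldehydes. It had 9383, 11640, 10331 and 16840 CPM in trichome libraries 1 to 4, against 62.1, 56.1, 47.8 and 16.3 CPM in leaf libraries 1 to 4. Its mean was 12048 ± 3326 CPM in trichome and 45.6 ± 20.4 CPM in leaf (SD, n = 4 each), a ratio of 264.5, the third largest of the group. Trichome 4 was its highest trichome library and leaf 4 its lowest leaf library, so its ratio in collection 4 alone was 1036. Solyc07g049690 is HPL, a hydroperoxide lyase, which cuts oxidised fatty acids to aldehydes. It had 3897, 4380, 3763 and 5165 CPM in trichome, against 288, 187, 362 and 306 CPM in leaf libraries 1 to 4. Its ratio was 15.1, with leaf 3 the highest leaf library and leaf 2 the lowest.

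The named genes of terpene formation were an isomerase and a synthase. Solyc04g056390 is IDI1, an isopentenyl diphosphate isomerase, which interconverts the terpene building blocks. It had 2840, 3696, 3444 and 5191 CPM in trichome libraries 1 to 4, against 128, 144, 147 and 84.4 CPM in leaf libraries 1 to 4. Its trichome mean was 3793 ± 999 CPM and its leaf mean 126 ± 28.9 CPM (SD, n = 4 each), a ratio of 30.2. Solyc12g006570 is TPS17, a terpene synthase. It had 640.5, 542, 570.3 and 525 CPM in trichome, against 5.21, 4.94, 2.42 and 0.859 CPM in leaf. TPS17 lay close to the lower limit in trichome and among the lowest in leaf, at a ratio of 169.7.

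Solyc08g005050 is MYC1, a basic helix-loop-helix transcription factor known for its part in the development of type VI glands. It had 498, 611, 547 and 752 CPM in trichome libraries 1 to 4, against 65.0, 90.1, 58.6 and 56.3 CPM in leaf libraries 1 to 4. MYC1 had the smallest ratio of the 116, 8.92, and was under 8 times leaf in collections 1 and 2, at 7.66 and 6.78 times.

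The most abundant gene was Solyc09g097800. It had 22494, 32214, 14576 and 36824 CPM in trichome libraries 1 to 4, against 115, 142, 112 and 46.0 CPM in leaf libraries 1 to 4. Among its trichome libraries trichome 4 was highest and trichome 3 lowest, and its mean was 26527 ± 9958 CPM in trichome and 104 ± 40.7 CPM in leaf (SD, n = 4 each). Solyc03g111820 had 21430, 23504, 22343 and 35238 CPM in trichome, against 144, 216, 65.2 and 22.4 CPM in leaf. Trichome 1 to 3 lay close together with trichome 4 well above them, while leaf 2 was the highest leaf library and leaf 4 by far the lowest. Solyc10g007870 had 13978, 16817, 12433 and 14075 CPM in trichome, against 57.8, 88.7, 46.6 and 16.1 CPM in leaf. It had the largest ratio of the group, 273.9. Solyc10g048030 had 9768, 13014, 11567 and 15689 CPM in trichome, against 59.1, 45.4, 44.8 and 41.1 CPM in leaf. Its leaf libraries were closer together than those of the 3 genes before it, and its ratio was 262.7.

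Below loxC in the order of abundance, Solyc01g006430 had 6054, 8838, 7181 and 11503 CPM in trichome libraries 1 to 4, against 413, 392, 317 and 339 CPM in leaf libraries 1 to 4. Solyc01g074030 had 6281, 6178, 5975 and 5246 CPM in trichome, against 458, 418, 361 and 408 CPM in leaf. These 2 genes took larger shares of leaf reads than the rest of the first 12, and their ratios were 23.0 and 14.4. Solyc02g071710 had 5073, 5935, 5034 and 7974 CPM in trichome, against 36.9, 32.0, 28.7 and 15.5 CPM in leaf. Solyc09g092740 had 6190, 5844, 5207 and 6541 CPM in trichome, against 44.4, 63.1, 23.2 and 9.56 CPM in leaf. Solyc01g088430 had 4640, 4909, 4688 and 5392 CPM in trichome, against 33.9, 73.4, 18.4 and 5.72 CPM in leaf. Each of these 3 was highest in trichome 4 and lowest in leaf 4, with ratios of 212, 169.6 and 149. The other 2 of the first 12, Solyc09g072750 and Solyc00g068970, differed most between trichome libraries and are described with the spread below.

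**Figure D2:**
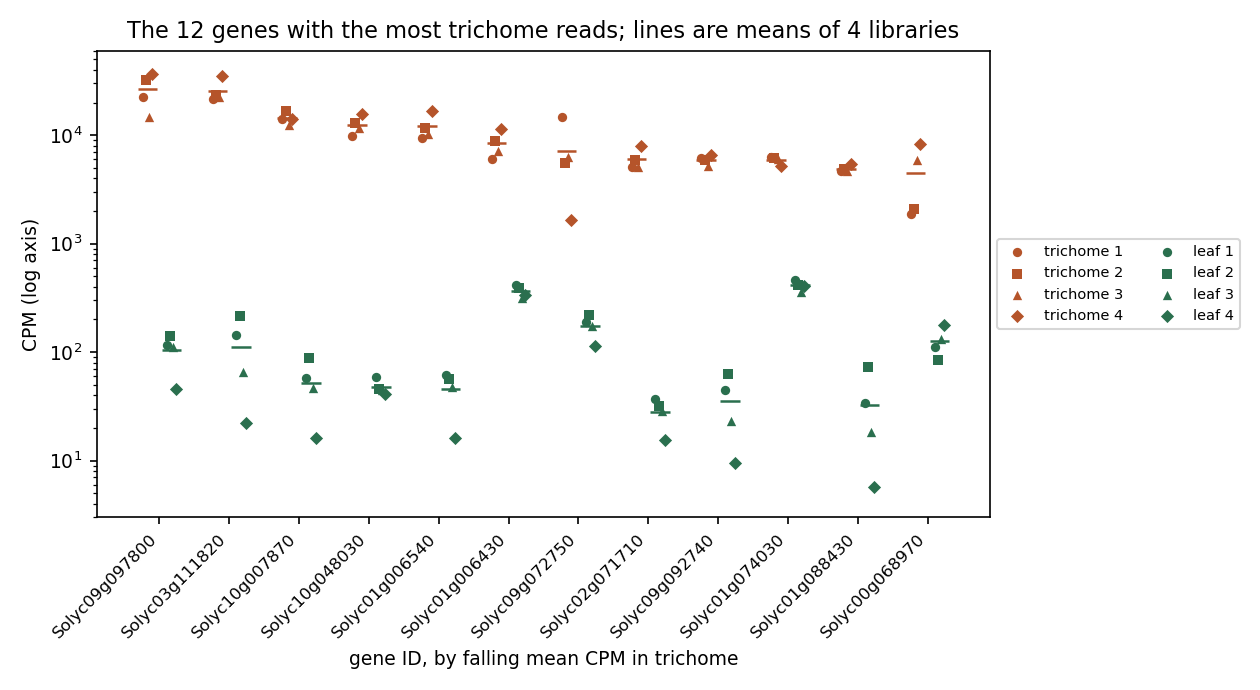
CPM (log axis) of the 12 genes with the highest trichome mean, with 4 trichome libraries left and 4 leaf libraries right for each gene; the short lines are means and the marker shape gives the library number. Trichome points lie above all leaf points for each gene; the trichome points of Solyc09g072750 and Solyc00g068970 are the most spread.

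At the ends of the ratio, Solyc07g008710 was the second largest at 267.8 times, with 2497, 3373, 3150 and 2529 CPM in trichome libraries 1 to 4, against 15.5, 16.5, 9.19 and 2.00 CPM in leaf libraries 1 to 4. After MYC1 the smallest ratios were those of Solyc08g082430, Solyc12g099260 and Solyc03g096840. Solyc08g082430 had 634, 682, 675 and 693 CPM in trichome, against 63.8, 85.7, 92.4 and 55.2 CPM in leaf, a ratio of 9.04. Solyc12g099260 had 681, 629, 700.3 and 694 CPM in trichome, against 59.4, 77.4, 96.9 and 31.9 CPM in leaf, a ratio of 10.2. Solyc03g096840 had 705, 857, 736 and 833 CPM in trichome, against 60.8, 107, 94.2 and 39.5 CPM in leaf, a ratio of 10.4. In collection 3 all 3 genes were under 8 times leaf, at 7.31, 7.23 and 7.81 times in the order given.

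The 4 trichome libraries did not hold the genes at equal levels, and trichome 4 stood apart. It was the highest trichome library for 60 of the 116 genes, against 24, 23 and 9 for trichome 1 to 3, and the lowest for 31 (26.7%). Over all tested genes trichome 4 was highest in 13.6% and lowest in 58.7%. Among the 96 other abundant genes it was highest for 45.8%, close to the 51.7% of the gland genes, and it was lowest for 32.3% of them. Library sizes were also adjusted by TMM, which allows for differences in composition and gave trichome 4 a factor of 0.773. With TMM trichome 4 was highest for 85 of the 116 (73.3%) and lowest for 17 (14.7%), beside 32.9 and 38.4% of all tested genes. The 96 other abundant genes were not counted with TMM, so whether they differ from the gland genes there is not known.

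The median coefficient of variation (CV, SD over mean) of the 116 genes was 16.8% in trichome, against 19.1% for the 96 other abundant genes and 24.9% for all tested genes. For the 116 genes it was 10.9% without trichome 4 and 25.9% with TMM. The other sets were not computed under these settings, so their order is shown only by gene totals over all 4 trichome libraries. In trichome 31 genes had a CV under 10%, 73 between 10 and 50%, and 12 over 50%. Solyc09g092560 was the steadiest, with 742, 779, 777 and 757 CPM in trichome libraries 1 to 4, against 5.57, 7.98, 2.96 and 2.03 CPM in leaf libraries 1 to 4, a trichome CV of 2.30%. Solyc01g094090 had 1587, 1530, 1542 and 1483 CPM in trichome, against 13.5, 25.5, 9.19 and 2.58 CPM in leaf, a trichome CV of 2.78%, and Solyc08g082430 followed at 3.80%.

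A small set of genes varied widely between trichome libraries. The highest trichome library was at least 4 times the lowest for 15 of the 116 genes (12.9%), against 3 of the 96 other abundant genes (3.13%); the factor of 4 was set after the values were seen, and the difference was not tested. Without trichome 4 the count was 1 of the 116 and 3 of the 96, without trichome 1 it was 6 and 3, and with TMM it was 9 and 3. The 15 genes were sorted into 2 patterns by whether trichome 4 was their lowest trichome library.

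In the first, 11 genes were lowest in trichome 4, and 9 of these were highest in trichome 1. Over all tested genes trichome 4 was lowest for 58.7% and trichome 1 highest for 34.5%. Solyc09g072750, seventh in mean abundance, had 14841, 5499, 6314 and 1655 CPM in trichome libraries 1 to 4, against 190.5, 222, 176 and 115 CPM in leaf libraries 1 to 4. Its level in trichome 1 was 8.97 times that in trichome 4, the widest range of the group. Solyc00g071180 had 496, 269, 1045 and 204 CPM in trichome, against 27.9, 12.3, 18.1 and 82.6 CPM in leaf. It differed from the other 10 in being highest in leaf 4, and in collection 4 alone it was only 2.47 times leaf. The other 10 were each highest in leaf 2, and 8 of the 11 were lowest in leaf 4. Of all 116 genes, 64.7% were highest in leaf 2 and 76.7% lowest in leaf 4, beside 49.4 and 50.6% of all tested genes.

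In the second pattern, 4 genes were lowest in trichome 1 and each was highest in leaf 4. Solyc00g068970 had 1891, 2082, 5843 and 8239 CPM in trichome libraries 1 to 4, against 111, 84.9, 133 and 177 CPM in leaf libraries 1 to 4. Solyc03g063080 had 398, 468, 2427 and 1746 CPM in trichome, against 65.3, 29.9, 115 and 151 CPM in leaf, and had the largest CV, 79.0%. The others were Solyc00g006470 and Solyc11g044310. In all 4 genes trichome 3 and 4 lay well above trichome 1 and 2, and leaf 3 and 4 lay above leaf 1 and 2, though in Solyc00g006470 leaf 3 and leaf 1 were only 53.6 and 52.3 CPM. Within that coarse split the tissues differed, since the lowest library was trichome 1 in trichome and leaf 2 in leaf.

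**Figure D3:**
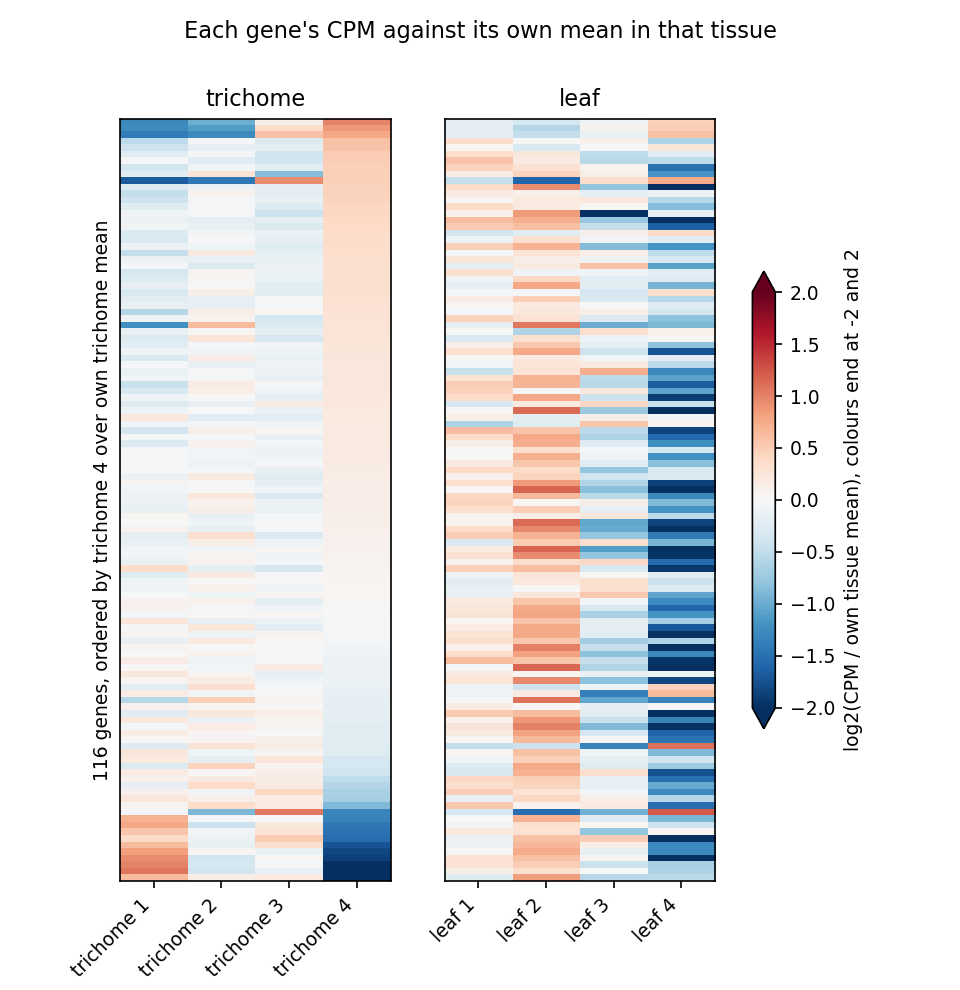
Each of the 116 genes (rows) in 4 trichome libraries (left) and 4 leaf libraries (right), coloured by log2 of its CPM over its own mean in that tissue, with colours saturating at the ends of the scale. Rows run from genes high in trichome 4 at the top to genes low in trichome 4 at the bottom; leaf 4 is the lowest leaf library for 76.7% of the genes, beside 50.6% of all tested genes.

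In leaf the genes varied more. Their median CV was 43.8% in leaf, against 19.4% for the 96 other abundant genes and 23.7% for all tested genes. Without leaf 4 the medians were 28.6% for the gland genes and 18.9% for the other abundant genes. The sets were not matched for leaf level. The gland genes had a median of 20.4 CPM in leaf, and each of the 96 others lay above that by the limits that define them. The part of leaf level in these spreads was not tested. Leaf 2 was the highest leaf library for 75 genes (64.7%), beside 49.4% of all tested genes, and leaf 4 the lowest for 89 (76.7%), beside 50.6% of all tested genes. With TMM leaf 2 was highest for 54 genes (46.6%) and leaf 1 for 36, beside 28.1 and 19.4% of all tested genes, and leaf 4 was lowest for 77 (66.4%), beside 29.8%. By gene totals 55 genes fell in the exact order leaf 2, leaf 1, leaf 3, leaf 4. How many of all tested genes fell in that order was not computed. Since leaf 2 was highest in 49.4% and leaf 4 lowest in 50.6% of them, the count alone does not set the gland genes apart. The sum of the 5 type VI markers had the same order, with 135.0, 205.9, 94.3 and 70.9 CPM in leaf libraries 1 to 4. Markers of type I and IV tips summed to 2.55, 15.5, 3.20 and 0.601 CPM in those libraries, again highest in leaf 2 and lowest in leaf 4. The sum of the markers of other epidermis, at 607, 666.3, 619 and 346.5 CPM in leaf libraries 1 to 4, was also highest in leaf 2 and lowest in leaf 4. Mesophyll markers, at 27007, 23508, 22966 and 26064 CPM, and the phloem marker, at 167, 135.7, 250.8 and 228 CPM, ran otherwise. All these marker values are by gene totals. They were not rescaled by TMM, which gave leaf 2 the largest factor in leaf, 1.24, so their highest library may depend on scaling. The part of any of these cell types in the leaf levels was not tested.

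The drop between leaf 2 and leaf 4 was steeper for genes with larger ratios. The median of leaf 2 over leaf 4 was 5.01 for the 48 genes at 100 times or more, 2.04 for the 43 genes at 20 to 100 times and 1.52 for the 25 genes under 20 times, beside 1.34 for all tested genes. With TMM the first of these was 3.78 and that of all tested genes 1.01. Leaf 4 enters both quantities, since a low leaf 4 also lowers the leaf mean under the ratio, so the bands describe these libraries and are no independent relation. Leaf 2 was above leaf 4 for 47 of the 48 genes in the first band, beside 75.4% of all tested genes.

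**Figure D4:**
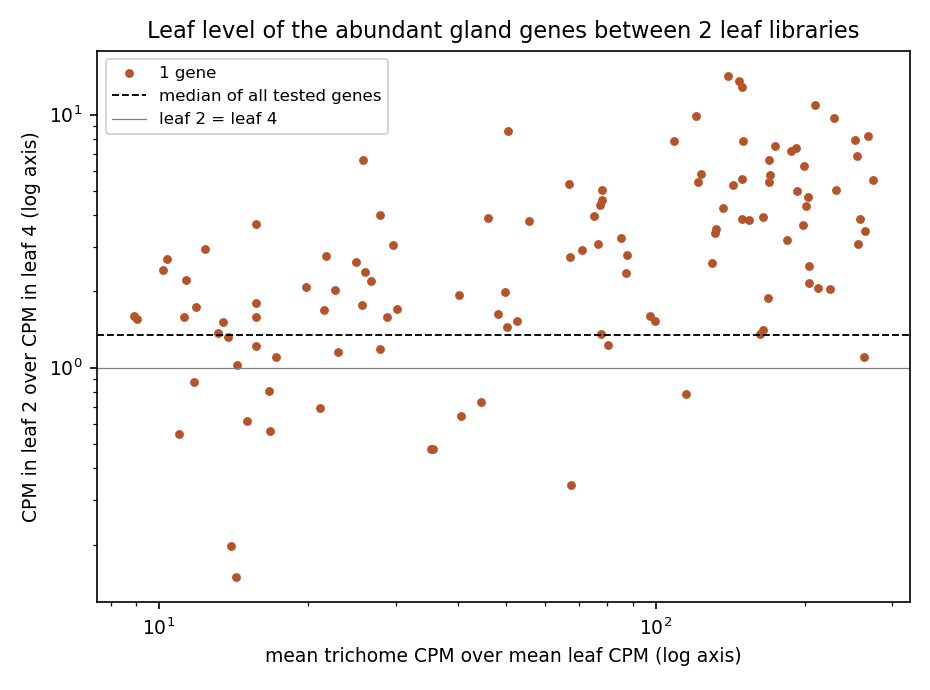
CPM in leaf 2 over CPM in leaf 4 (vertical, log axis) against mean trichome CPM over mean leaf CPM (horizontal, log axis), with 1 point for each of the 116 genes. The dashed line is the median of all tested genes, 1.34, and the median of the 48 genes at 100 times or more is 5.01.

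By the chromosome number in the gene ID, chromosome 9 held the most of the 116 genes. It had 20 of them, 0.797% of its 2510 genes in the files, and 23.9% of the trichome reads of the group. Chromosome 7 followed with 12 genes, or 0.481% of its genes, while chromosome 11 had 4 genes, or 0.168%. The order below chromosome 9 depends on the list of IDs left out: with the 10 genes that also met both limits, chromosome 9 had 21, chromosome 8 had 15 and chromosome 7 had 13. Chromosomes 1, 3 and 10 held 14.1, 12.7 and 11.9% of the group's reads.

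Some of the genes were neighbours in the files' order. Counting genes on chromosomes 1 to 12 that lay at most 10 places apart in the files' order, a limit set after the values were seen, 29 of 113 genes (25.7%) stood in 12 runs, against 8 of the 96 other abundant genes (8.33%). With at most 5 places the counts were 20 and 2, and with at most 20 places 38 and 14. The 3 genes with chromosome number 0 were left out, since their order need not be that of one chromosome. The difference was not tested, and near-identical neighbours can share reads, so single values within a run are uncertain.

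The largest run had 5 genes on chromosome 9, and they did not vary alike. Solyc09g097800 and Solyc09g092740, described above, stood in it with Solyc09g092750. The ID number of Solyc09g097800 lies far above those of the rest of the run. It was counted in by the files' order, and whether it lies beside them on the chromosome was not checked. Solyc09g092750 had 2716, 2889, 2454 and 2399 CPM in trichome libraries 1 to 4, against 12.4, 19.9, 5.79 and 2.89 CPM in leaf libraries 1 to 4. Solyc09g092720 had 2211, 1348, 1357 and 541 CPM in trichome, against 46.0, 74.8, 38.6 and 24.4 CPM in leaf. Solyc09g092760 had 1295, 511, 630.3 and 158 CPM in trichome, against 29.5, 34.1, 17.9 and 15.6 CPM in leaf. The last 2 belong to the genes that were low in trichome 4, while Solyc09g092740 and Solyc09g092750 had CVs of 9.57 and 8.78%.

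A run of 3 genes on chromosome 5 was even in trichome. Solyc05g012950 had 1742, 1765, 1619 and 2014 CPM in trichome libraries 1 to 4, against 12.2, 15.7, 6.06 and 3.15 CPM in leaf libraries 1 to 4. Solyc05g013010 had 2458, 2675, 2440 and 2678 CPM in trichome, against 18.1, 28.5, 8.51 and 3.81 CPM in leaf. Solyc05g012970, between them, had a CV of 4.14% in trichome, and all 3 followed the leaf order 2, 1, 3, 4.

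**Figure D5:**
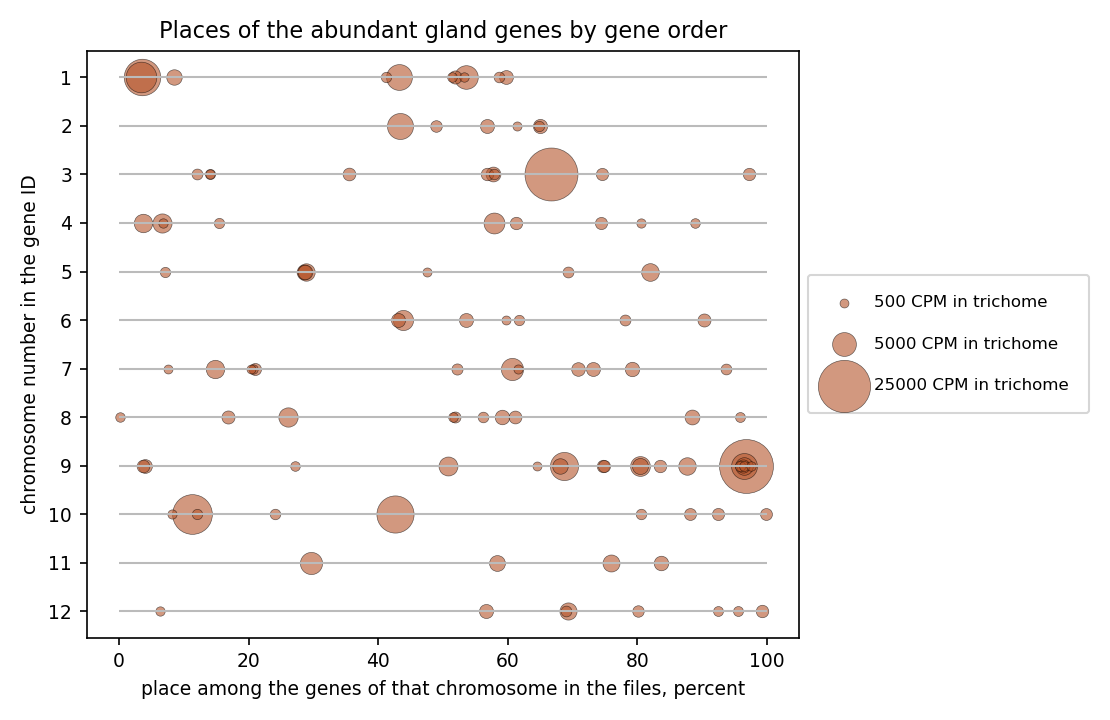
Place of each abundant gland gene among the genes of its chromosome in the files' order (horizontal, percent) for chromosomes 1 to 12 (vertical); point size grows with mean trichome CPM. Chromosome 9 has the most points, 20, and the 3 genes with chromosome number 0 in their ID are not drawn.

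The rule was also applied to 3 collections at a time, and the chosen genes were read in the collection left out. The rule and its list of IDs left out were set with earlier results of these data known, so this is no independent test. With collections 1 to 4 left out in turn, 114, 120, 116 and 121 genes were chosen, of which 111, 116, 113 and 113 are among the 116 genes. In the collection left out, 110, 118, 111 and 115 of the chosen genes were at least 8 times higher in trichome than in leaf. Of the chosen genes, 101, 106, 103 and 102 also reached 500 CPM in trichome there. Every chosen gene was higher in trichome in the collection left out. For those among the 116 this was fixed beforehand, since their lowest trichome library lay above their highest leaf library. The same counts over all tested genes were not computed, so nothing is read from these counts. The share of the chosen genes there was 25.6, 28.3, 25.1 and 32.8% of gene counts in trichome libraries 1 to 4. In leaf libraries 1 to 4 it was 0.592, 0.686, 0.525 and 0.809%. The 116 genes held 0.440% in leaf 4, so the 0.809% there comes from the changed set of genes. With the chosen sets leaf 4 had the highest leaf share, while with the 116 genes it had the lowest.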

How the data were processed

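The authors deposited raw counts for each gene in each of the 4 trichome and 4 leaf libraries. The tools listed by the submitters' processing notes, without versions, are Trimmomatic, TopHat2, SAMtools and HTSeq. Build, annotation and strand setting are not given in the sources used, so overlapping genes cannot be told apart. The 5 summary lines written by HTSeq were dropped; they took 21.1% ± 2.61 of counted lines in trichome and 13.3% ± 0.829 in leaf (SD, n = 4 each). CPM was computed from the deposited counts by gene total. The members and lists were chosen with earlier results of these data known.

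The fit across all genes used edgeR 4.0.16 (R 4.3.3; TMM, filterByExpr, quasi-likelihood test, Benjamini-Hochberg adjusted p under 0.05 over 20409 genes) and was checked on simulated data. A standard error is the log2 fold change divided by the root of its F statistic, an approximation. Values per library are given, by rule, for the 12 most abundant genes, the 4 largest and 4 smallest ratios, the 3 largest and 3 smallest CVs, the named genes, examples of runs and the genes beside the limits. Comparisons with the 96 other abundant genes were chosen after the values were seen.

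The labels' protocols take both tissues of a collection from the same plants, which pairs the libraries by number, although the genotype labels conflict with this. Deviations of same-numbered libraries from their tissue means correlated over genes at 0.0648, 0.131, 0.226 and 0.190, and those of different numbers at -0.262 to 0.163. Replicate libraries differed beyond sampling noise. Alternatives were DESeq2 1.42.0 and its size factors, no filter, a replicate block, other limits, and leaving out each library.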

Additional observations from a re-analysis of the deposited data

Results flagged for a closer look

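Solyc03g111820 had 35238 CPM in trichome 4, against 21430, 23504 and 22343 CPM in trichome 1 to 3, and its distance from the nearest library took 0.850 of the whole range, above the critical value of Dixon's test for 4 samples. Of 232 groups of 4 libraries checked, 116 genes in each tissue, 6 passed this value (2.59%), and chance alone marks about 1 in 20. Of the 6, 4 were high in trichome 4, 1 was low in trichome 4 and 1 was high in leaf 2.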

How the results depend on the processing

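The rule fixed the direction of the 116 genes on these same libraries, so their calls under the 12 alternatives to the edgeR fit (116 of 116 in each) say nothing of stability. The fit whose values are quoted used tissue only and left out the pairing of libraries by collection. With a replicate block, which takes the libraries of a collection as paired, 14522 genes were called, against 14780 without it. The limit of 8 times was passed in each collection by 105 genes. The number of genes chosen moved to 205 with a limit of 250 CPM and to 70 with 1000 CPM; it was 128 with TMM, 124 with DESeq2 size factors, 115 with medians, 141 with a limit of 4 times, 95 with 16 times, and 114 to 120 with 1 library left out. The share of the genes in trichome was 21.8% of all counted lines, summary lines included. The median CV in trichome was 25.9% with TMM and 10.9 to 18.1% with 1 trichome library left out, lowest without trichome 4; the cause was not tested. Which trichome library was highest or lowest depended on scaling: with TMM the genes highest in trichome 1 to 4 numbered 13, 13, 5 and 85. Depth limited no gene in trichome; in leaf the rarest rested on 22 counts.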
